A study of Homo sapiens with 24 samples.

Results

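MB-3, a small molecule inhibitor of the histone acetyltransferase GCN5, was set against its own vehicle in BT549 cells. BT549 is a cell line from a human breast tumour of the triple negative, mesenchymal kind. The comparison took 3 libraries from cells given 100 µM MB-3, dissolved in DMSO, for 3 h (MB3) and 3 libraries from cells given the vehicle that the labels mark with #2 (VEH2), which are 6 of the 24 libraries of the series. All 6 came from cells labelled wild type, and their titles number them as biological replicates 1 to 3 within each group. The time under vehicle is not stated in the labels. The title of MB3 1 carries MED3 in place of MB3, but its treatment field gives MB3, and the library was placed in that group on that field.

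GCN5, encoded by KAT2A, adds acetyl groups to lysines of histone tails, a mark found at active promoters and enhancers. It works inside the coactivator complexes SAGA and ATAC, and its close relative PCAF, encoded by KAT2B, can take its place in either. SAGA is brought to DNA by sequence-specific activators, MYC among them.

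Values were deposited for 10048 genes. Their lowest mean was 83.9 normalized reads, so genes of low level were not measured here. A gene below that mean in either group may be listed only through its values in the other. Depth, recovered from the step between the deposited values, was 10.894 to 14.293 M reads in MB3 libraries and 8.306 to 19.957 M in VEH2 libraries. All 10 mesenchymal markers of the cell line were present, among them VIM and TWIST1, and their summed level was 74938 to 77665 in MB3 and 72829 to 75001 in VEH2. Of 10 leukocyte markers the table listed CORO1A alone, and it listed none of 5 endothelial and none of 5 erythroid markers. Of 10 luminal and receptor genes it listed ERBB2 and GATA3. In bulk RNA, fewer cells of a kind and less RNA per cell cannot be told apart.

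MB3 1 stood apart from the other 5 libraries. The first principal component of the 6 libraries held 56.6% of the variance, and MB3 1 had a loading of 0.85 on it, against -0.373 to 0.097 for the other libraries. Its deviation from the mean of all libraries correlated with the GC content of transcripts at -0.653 across genes, so GC-rich transcripts were low in it. The same correlation was -0.223 in MB3 2 and 0.21 in MB3 3, and 0.228, 0.575 and 0.384 in the VEH2 libraries. The difference between the groups moved with GC content too. The 1001 genes of highest GC content (median 63.7%) had a median log2 difference of -0.24, and the 1027 of lowest (median 36.9%) one of 0.10. Without MB3 1 these medians were -0.13 and 0.05. Removal of the GC content and length trends, or leaving out MB3 1, moved some printed differences by over 1.5 times. For many of these, at least 1 of the alternative values is given beside them.

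Few transcripts passed the threshold after adjustment. Of the 10048 genes, 3 rose and 3 fell in MB3 at a limma adjusted p under 0.05. That is 0.0597% of the table in both directions together and 0.0299% in each. With the replicate number as a term in the model 14 genes passed (0.139%), 6 higher (0.0597%) and 8 lower (0.0796%), and 4 of the 6 genes were among them. Before adjustment, 1377 genes (13.7%) had a limma p under 0.05, and with GC and length trends removed 986 of 9989 genes did. Genes moved together with GC content, so the nominal 0.05 does not measure here what chance alone would give. Genes that were not called cannot be taken as unchanged. The spread of log2 differences over the 9860 genes found in all 3 experiments' tables was 0.183 (SD) for MB3 over VEH2. It was 0.666 for KJ-PYR-9, an inhibitor of MYC, at 40 µM for 3 h over its vehicle, and 0.521 for an siRNA pool against MYC at 72 h over control siRNA. Differences of at least 2-fold were seen in 10 of these genes (0.101%) with MB-3, 1146 (11.6%) with KJ-PYR-9 and 499 (5.06%) with the siRNA. The tables were normalized separately and their depths differ, so these spreads were not tested against each other.

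The transcript of the inhibitor's target did not pass the threshold. KAT2A (chromosome 17, 42113111 to 42121367 on GRCh38) had 348, 454 and 465 normalized reads in MB3 and 415, 509 and 524 in VEH2. The groups overlapped, but each MB3 library was below the VEH2 library of the same number, with log2 differences of -0.26, -0.16 and -0.17. Their mean was -0.20 (SE 0.14, limma adjusted p = 0.526). With the replicate number as a term the SE was 0.07 and the limma adjusted p 0.21. The mean difference was -0.05 with GC and length trends removed and -0.06 without MB3 1. MB-3 acts on the enzyme, so this level does not check the labels. KAT2B averaged 262 ± 14.5 in MB3 and 249 ± 17.4 in VEH2 (SD, n = 3 each), a log2 difference of 0.08 (limma adjusted p = 0.679), or 0.02 with those trends removed and 0.12 without MB3 1. MYC averaged 2244 ± 265 in MB3 and 2313 ± 166 in VEH2 (SD, n = 3 each), a log2 difference of -0.05 with an SE of 0.11 (limma adjusted p = 0.852). For MYC those alternatives gave 0.00 and 0.05.

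HMOX1, the inducible heme oxygenase that breaks down heme to biliverdin, iron and carbon monoxide, had the clearest rise. It lies on chromosome 22 at 35381096 to 35394207. It had 14515, 12837 and 14477 normalized reads in MB3 and 4946, 4452 and 4942 in VEH2. Every MB3 library stood well above every VEH2 library, and MB3 1 lay beside MB3 3. The log2 fold change was 1.54 (SE 0.08, limma adjusted p = 0.001016), and the 3 numbered pairs, MB3 1 against VEH2 1 and so on, gave 1.55, 1.53 and 1.55. HMOX1 was called in all 17 alternative fits, among them the fit without a filter on low values, which repeats the main fit.

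Both other genes that rose also belong to the response to oxidants. OSGIN1, an oxidative stress induced growth inhibitor on chromosome 16 (83953240 to 83966332), had 171, 183 and 221 normalized reads in MB3 and 63.0, 49.6 and 77.5 in VEH2. Its VEH2 mean of 63.4 lay below the lowest gene mean, 83.9, so OSGIN1 may be listed only through its MB3 values. Its log2 fold change was 1.60 (SE 0.16, limma adjusted p = 0.0466), and without MB3 1 it was 1.67 with an adjusted p of 0.052. TXNRD1, the cytosolic thioredoxin reductase, lies on chromosome 12 (104215779 to 104350307) and had 11045, 10166 and 10026 in MB3 and 6421, 6861 and 6750 in VEH2. Its groups stood apart at a high level, with a log2 fold change of 0.64 (SE 0.07, limma adjusted p = 0.0466). The adjusted p of TXNRD1 was 0.0547 with the replicate number as a term and 0.0523 without MB3 1.

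**Figure D1:**
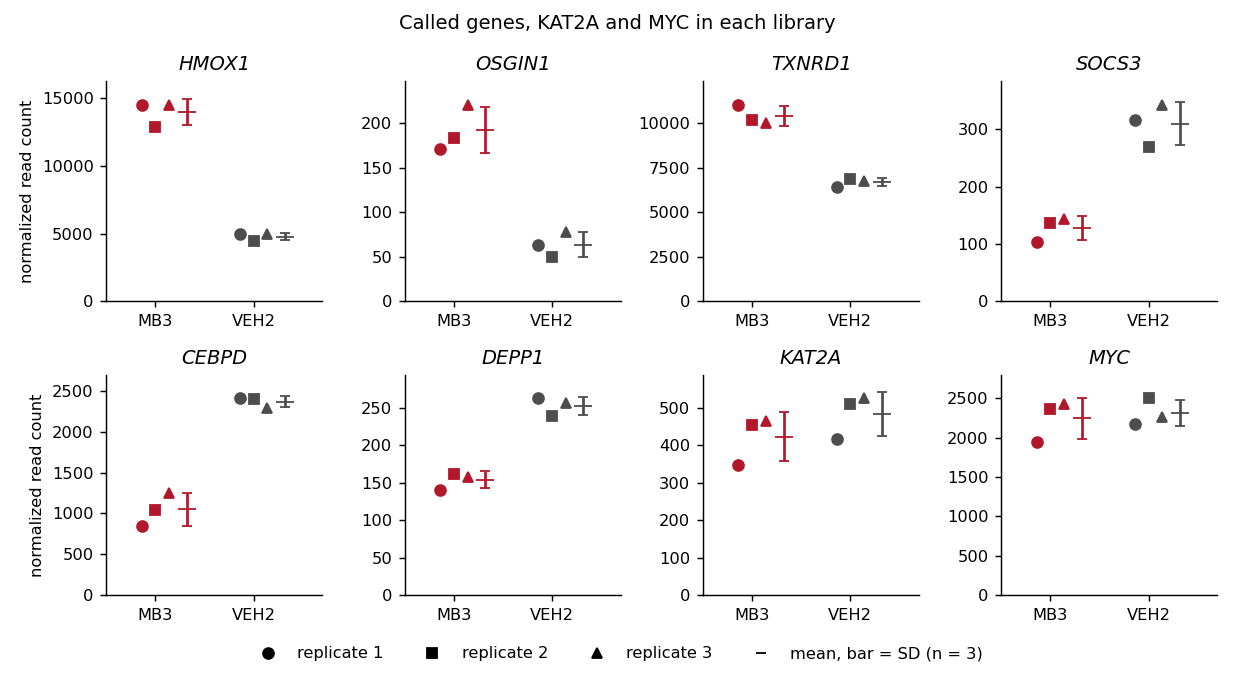
Normalized read counts per library for the 6 called genes and for KAT2A and MYC, MB3 in red and VEH2 in grey, with markers for replicates 1 to 3 and the mean and SD (n = 3) beside them. The MB3 and VEH2 libraries do not overlap in HMOX1, OSGIN1, TXNRD1, SOCS3, CEBPD and DEPP1, and they overlap in KAT2A and MYC.

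NRF2 is the transcription factor that oxidants and electrophiles release from its inhibitor KEAP1. It binds antioxidant response elements in promoters and enhancers. The core of that element, TGACNNNGC, was sought on both strands in RefSeq promoter windows (GRCh38.p14, 250 bases before to 50 after the start), which matched 8175 of the 10048 genes and 17 of the 25 tested members of a list of NRF2 targets. It was present in 15.4% of the 8175 windows and in 4 of the 17, those of GCLM, TXNRD1, PGD and ME1. The 120 bases before the start are shown for TXNRD1 and GCLM, the members with a match there that differed most between MB3 and VEH2. Capitals mark the core.
TXNRD1, chr12:104215659-104215778, plus strand: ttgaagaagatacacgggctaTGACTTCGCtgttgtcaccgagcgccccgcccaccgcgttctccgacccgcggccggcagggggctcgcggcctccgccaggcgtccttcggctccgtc
GCLM, chr1:93909431-93909550, minus strand: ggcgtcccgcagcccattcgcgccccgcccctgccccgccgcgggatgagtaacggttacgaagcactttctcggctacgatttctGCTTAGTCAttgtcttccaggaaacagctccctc
The core of TXNRD1 reads in the direction of the gene and begins 99 bases before the start, and another match runs across the start itself. That of GCLM reads on the opposite strand, 34 to 26 bases before the start. The window of OSGIN1 did not hold these letters. HMOX1, FTH1, GSR and SLC7A11 were among the members without a window, so their promoters were not searched. A match is a description of sequence, with no measurement of binding.

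Of 30 NRF2 targets listed, 25 were tested, and HMOX1, OSGIN1 and TXNRD1 were the called members. The MB3 values lay wholly above the VEH2 values for 10 members, against 11.5% of all genes, and wholly below for 2, against 11.6%. In all 3 numbered pairs 13 members were higher and 4 lower, against 24.2% and 22.3% of all genes. The median log2 difference of the list was 0.11, beside 0.01 for all genes, and it was 0.10 after GC content and length trends were removed and 0.12 without MB3 1.

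GCLM, the modifier subunit of the enzyme that starts glutathione synthesis, was named after its values were seen. It had 2285, 1768 and 1767 normalized reads in MB3 and 1307, 1165 and 1201 in VEH2. The groups did not overlap, but the log2 difference was 0.65 (SE 0.11) at a limma adjusted p of 0.161, or 0.0547 with the replicate number as a term. NQO1, a quinone reductase, averaged 8956 ± 493 in MB3 and 7413 ± 147 in VEH2 (SD, n = 3 each), a log2 difference of 0.27 (limma adjusted p = 0.27). GCLC, the catalytic partner of GCLM, and GSR, which reduces oxidized glutathione, had log2 differences of 0.28 and 0.23 and did not pass either, and without MB3 1 GCLC was at 0.19. The ferritin heavy chain FTH1 had 14910, 23232 and 24563 in MB3 and 26152, 29731 and 28194 in VEH2. Its log2 difference was -0.46 (SE 0.18, limma adjusted p = 0.341), with MB3 1 the lowest library, and without MB3 1 it was -0.23. FTL, the light chain, had a log2 difference of -0.22, or -0.15 without MB3 1. NFE2L2, which encodes NRF2, and KEAP1 had log2 differences of 0.14 and -0.07. KEAP1 was at 0.09 with GC and length trends removed and at -0.03 without MB3 1. These genes too were chosen after their values were seen.

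In the integrated stress response, kinases that phosphorylate the initiation factor eIF2 raise translation of ATF4. None of its 26 tested members was called. In all 3 pairs 16 were higher and 3 lower, against 24.2% and 22.3% of all genes, and the MB3 values lay wholly above the VEH2 values for 9 and wholly below for 1, against 11.5% and 11.6%. The list median was 0.15 in log2 difference, with pair medians of 0.09, 0.16 and 0.09, and it was 0.15 with GC and length trends removed. DDIT3, which encodes the stress factor CHOP, had 833, 596 and 650 normalized reads in MB3 and 400, 360 and 382 in VEH2. No library of one group reached the other, and MB3 1 was highest. Its log2 difference was 0.85 (SE 0.13) at a limma adjusted p of 0.103, and 0.0417 with the replicate number as a term. With the GC and length trends removed in that same model it was 0.0565. CHAC1, which cleaves glutathione, had 226, 238 and 329 in MB3 and 191, 181 and 216 in VEH2, a log2 difference of 0.41 (limma adjusted p = 0.322). CEBPB was at -0.56. The list of aminoacyl-tRNA synthetases, many of them ATF4 targets, also holds AIMP1, AIMP2 and EEF1E1, which are not synthetases. Of its 23 tested members 16 were higher in all 3 pairs and 2 lower, with a median of 0.09 as deposited and after GC removal. NARS1 and AIMP1 were at 0.21 each, and AIMP2 at -0.21, and AIMP1 was at 0.11 with GC and length trends removed.

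**Figure D2:**
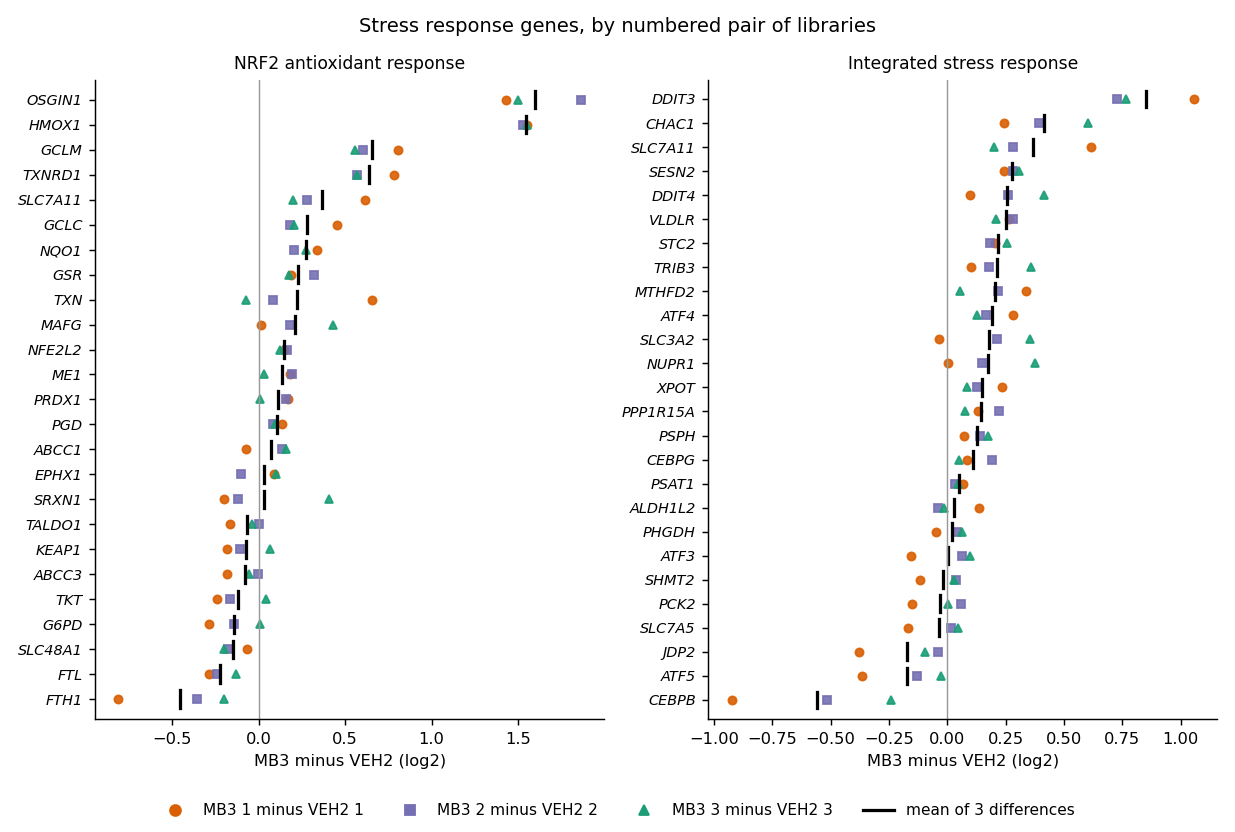
Log2 difference, MB3 minus VEH2, of each tested member of the NRF2 list (left) and the integrated stress response list (right), with 1 marker per numbered pair and a black bar at their mean. OSGIN1, HMOX1, GCLM and TXNRD1 lie above the rest on the left and FTH1 is lowest, while DDIT3 is highest and CEBPB lowest on the right.

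Genes that ERK MAP kinase signalling induces, most of which feed back on it, had the highest list median, 0.19 in log2 difference, with pair medians of 0.18, 0.09 and 0.22. The list holds phosphatases (DUSP) and Sprouty and Spred proteins, which inhibit the pathway, and the ETS factors ETV1, ETV4 and ETV5, which are transcriptional activators downstream of it. No member of the 18 tested was called without the replicate number as a term. With it, 3 rose and 1 fell, but none of these 4 passed once GC and length trends were also removed, at adjusted p-values of 0.0703 for SPRY4 and 0.0565 for DUSP4, DUSP6 and SPRY1. Whole separation of the groups was seen for 7 members higher in MB3 and 3 lower, against 11.5% and 11.6% of all genes, and 10 were higher in all 3 pairs, against 24.2%. The median was 0.12 with GC and length trends removed and 0.21 without MB3 1.

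SPRY4, an inhibitor of receptor tyrosine kinase signalling, had 488, 500 and 658 normalized reads in MB3 and 211, 298 and 279 in VEH2. Its lowest MB3 library stood above its highest VEH2 library. The log2 difference was 1.06 (SE 0.16), with a limma adjusted p of 0.113, and 0.0417 with the replicate number as a term. DUSP6, a phosphatase of ERK in the cytoplasm, had 472, 485 and 418 in MB3 and 286, 321 and 275 in VEH2, a log2 difference of 0.64 (SE 0.09). Its limma adjusted p was 0.101, and 0.0461 with the replicate number. DUSP4, a nuclear ERK phosphatase, had 780, 1092 and 884 in MB3 and 424, 682 and 507 in VEH2. Replicate 2 was highest in both groups, and the log2 difference of 0.78 had a limma adjusted p of 0.233 without the replicate number and 0.0417 with it. SPRY1, a relative of SPRY4, moved in the opposite direction. It had 104, 76.2 and 93.9 in MB3 and 169, 130 and 143 in VEH2, a log2 difference of -0.69 with a limma adjusted p of 0.202, and 0.0417 with the replicate number.

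**Figure D3:**
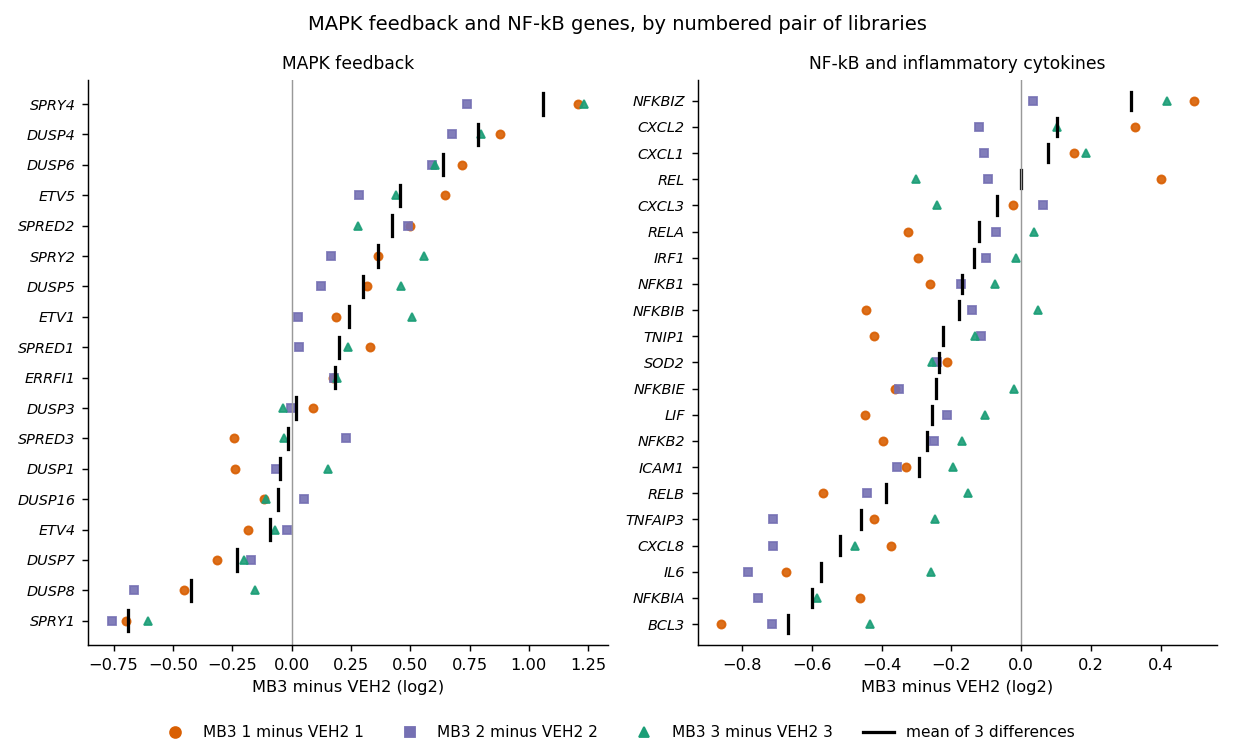
Log2 difference, MB3 minus VEH2, of each tested member of the MAPK feedback list (left) and the NF-kB list (right), with 1 marker per numbered pair and a black bar at their mean. SPRY4, DUSP4 and DUSP6 are the 3 highest on the left and SPRY1 the lowest, while most NF-kB members lie below 0, with BCL3 and NFKBIA lowest.

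The 3 genes that fell were SOCS3, CEBPD and DEPP1. SOCS3, the feedback inhibitor of JAK and STAT signalling, lies on chromosome 17 (78356778 to 78360925) and had 104, 136 and 144 normalized reads in MB3 and 317, 270 and 343 in VEH2. No MB3 library reached the lowest VEH2 library. Its log2 fold change was -1.28 (SE 0.14, limma adjusted p = 0.0466), and without MB3 1 it was -1.13 (adjusted p = 0.0418). CEBPD, the transcription factor C/EBP delta on chromosome 8 (47736913 to 47738164), had 849, 1043 and 1252 in MB3 and 2407, 2402 and 2288 in VEH2. Its log2 fold change was -1.19 (SE 0.13, limma adjusted p = 0.0466). CEBPD has a GC content of 70.0%, and with GC and length trends removed the change was -0.73 with an adjusted p of 0.0166. DEPP1, a target of FOXO factors linked to autophagy, lies on chromosome 10 (44976128 to 44978809). It had 141, 162 and 158 in MB3 and 263, 240 and 257 in VEH2, a log2 fold change of -0.72 (SE 0.08, limma adjusted p = 0.0466). The adjusted p of DEPP1 was 0.0547 with the replicate number and 0.052 without MB3 1.

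With 1 library left out at a time, HMOX1 was called in every case, CEBPD without MB3 1 or MB3 3, SOCS3 without MB3 1, and OSGIN1 without VEH2 3, and CEBPD, SOCS3 and OSGIN1 lost their calls in the other cases. TXNRD1 and DEPP1 lost theirs whichever library was left out. The highest limma adjusted p over these fits was 0.304 for CEBPD and SOCS3, 0.282 for OSGIN1 and 0.398 for TXNRD1 and DEPP1. The signs did not change, and log2 fold changes stayed at 1.43 to 1.75 for OSGIN1, 0.60 to 0.67 for TXNRD1, -1.37 to -1.13 for SOCS3, -1.33 to -1.05 for CEBPD and -0.76 to -0.66 for DEPP1. HMOX1 kept a log2 fold change of 1.49 to 1.60 with an adjusted p of at most 0.0163.

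Genes that glucocorticoids regulate had the lowest list median, -0.30 in log2 difference. No steroid was given in this comparison, and the list holds many genes that other signals also control. Of 25 genes listed 18 were tested, FKBP5 and TSC22D3 not being in the table. CEBPD was the only called member. The MB3 values lay wholly below the VEH2 values for 8 members and wholly above for 1, against 11.6% and 11.5% of all genes, and 12 were lower in all 3 pairs, against 22.3%. Pair medians were -0.45, -0.24 and -0.21, lowest in the pair with MB3 1. The median was -0.24 with GC and length trends removed and -0.17 without MB3 1. NFKBIA, the inhibitor of NF-kB that NF-kB itself induces, had 614, 430 and 474 normalized reads in MB3 and 846, 726 and 712 in VEH2. The groups did not overlap, and the log2 difference was -0.60 (SE 0.14, limma adjusted p = 0.233). CEBPB had 1215, 1466 and 1766 in MB3 and 2306, 2093 and 2088 in VEH2, a log2 difference of -0.56 as deposited and -0.25 with GC and length trends removed (limma adjusted p = 0.233 and 0.37).

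NF-kB genes and inflammatory cytokines had a median log2 difference of -0.24. This list shares NFKBIA and TNFAIP3 with the glucocorticoid list. None of the 21 tested members was called. Of them 14 were lower in all 3 pairs and 1 higher, against 22.3% and 24.2% of all genes, and the MB3 values lay wholly below the VEH2 values for 8, against 11.6%. Pair medians were -0.36, -0.21 and -0.15. With GC and length trends removed the median was -0.10, and without MB3 1 it was -0.20. BCL3, a nuclear partner of NF-kB, had 407, 560 and 664 normalized reads in MB3 and 739, 918 and 897 in VEH2. The log2 difference was -0.67 as deposited (limma adjusted p = 0.27) and -0.32 with GC and length trends removed. TNFAIP3, the deubiquitinase A20, had 84.6, 68.0 and 79.8 in MB3 and 114, 112 and 94.8 in VEH2, a log2 difference of -0.46 and of -0.47 with those trends removed. IL6 and CXCL8, named after their values were seen, were lower in each pair. IL6 had 123, 59.9 and 83.3 in MB3 and 197, 104 and 99.9 in VEH2. Replicate 1 was highest in both groups, so the groups overlapped, and the limma adjusted p of IL6 was 0.438 without the replicate number and 0.129 with it. The chemokines CXCL1, CXCL2 and CXCL3 had log2 differences of 0.08, 0.10 and -0.07, and of -0.06, -0.22 and -0.20 without MB3 1. CXCL8 was at -0.52, or -0.86 without MB3 1.

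The remaining genes with the smallest unadjusted p were not called. GADD45B, a stress-induced activator of MAP kinase signalling, had 150, 178 and 199 normalized reads in MB3 and 346, 305 and 343 in VEH2. Its log2 difference of -0.92 had a limma adjusted p of 0.0637, and 0.0492 with the replicate number, or 0.0622 with GC and length trends also removed. GAS1, a membrane protein that binds Hedgehog ligands, had 2240, 2762 and 2752 in MB3 and 4787, 5022 and 4129 in VEH2, a log2 difference of -0.85 (limma adjusted p = 0.0751). THOC3, a subunit of the complex that couples transcription to mRNA export, was at -0.57 and the zinc finger gene ZNF414 at -0.52, or -0.32 with GC and length trends removed. C4orf48, of 73.2% GC content, was at -0.70 as deposited and at 0.03 with GC and length trends removed. FLRT2, a membrane adhesion protein, and BBOF1, a basal body factor, were at 0.50 and 0.44, and FLRT2 was at 0.33 after that removal. The replicate number as a term added 10 genes in all, of which PDF, HOXC11, MAP3K8 and the small noncoding RNA BCYRN1 were lower and belong to none of the lists above. PDF, the mitochondrial peptide deformylase, had 43.3, 63.5 and 72.8 in MB3 and 112, 118 and 139 in VEH2. HOXC11 is a homeobox factor, and MAP3K8 is a kinase that relays NF-kB stimuli to ERK. Their log2 differences were -0.66 and -0.69, each with 3 pairs of like size. With GC and length trends also removed, the adjusted p was 0.0639 for PDF, 0.0588 for HOXC11 and 0.0565 for MAP3K8 and BCYRN1. These 4 genes were named after their calls were seen.

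**Figure D4:**
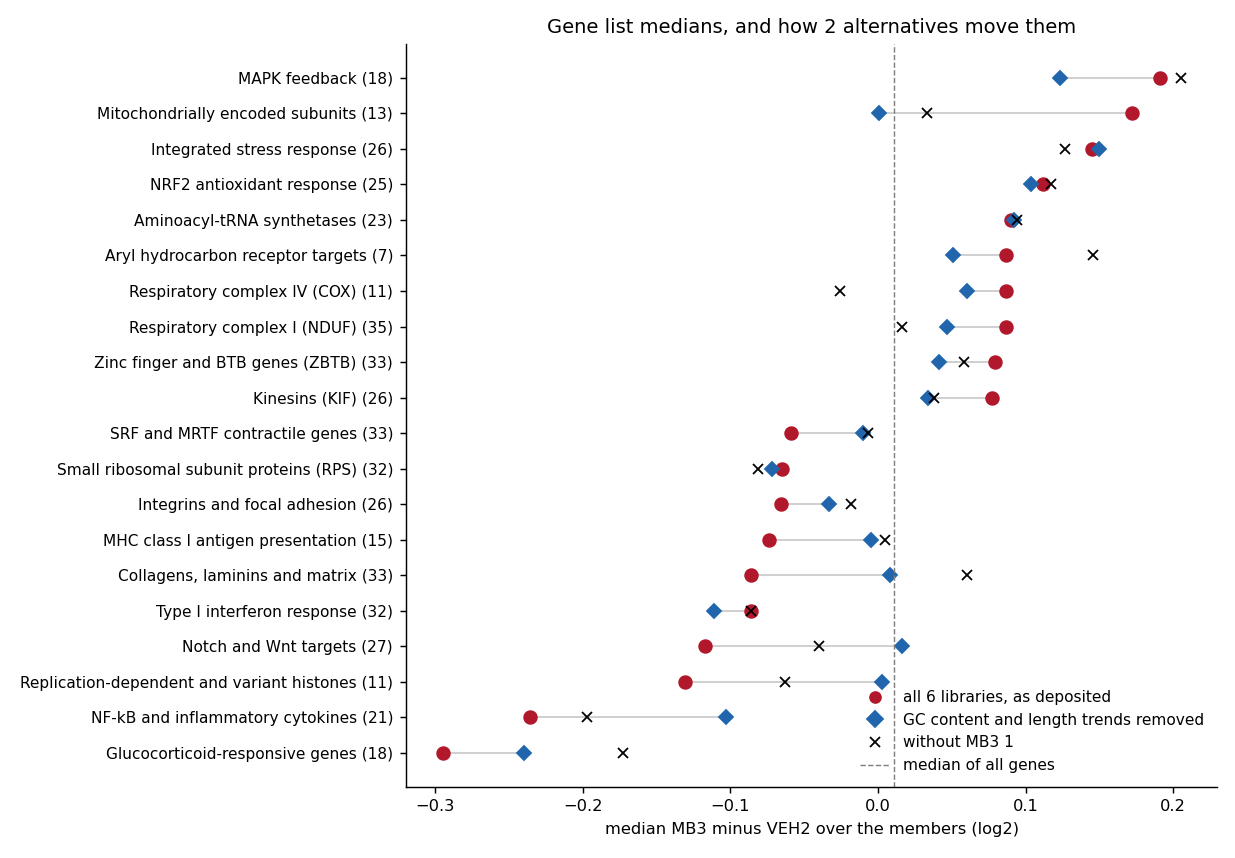
Median log2 difference, MB3 minus VEH2, of the 20 lists with at least 5 tested members that lie farthest from the median of all genes (dashed line), with the number of members tested in brackets. Red circles use all 6 libraries as deposited, blue diamonds have GC content and length trends removed, and crosses leave out MB3 1. Histones, mitochondrially encoded subunits, collagens and Notch and Wnt targets come to the dashed line once GC trends are removed, and the glucocorticoid, NF-kB, MAPK feedback and stress response lists stay off it.

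Beyond these lists the shifts were small. Of 98 lists and symbol families, 93 had at least 5 tested members, and 90 of those held no called gene. Their medians ran from -0.30 to 0.19. A median more than 0.1 from that of all genes was seen in 8 lists, and 4 of those 8 remained so with GC and length trends removed. The NRF2 list was not among these 4, as its distance went from 0.101 to 0.098. After removal 6 lists lay that far, among them amino acid transporters (median 0.075 as deposited and 0.124 after removal) and type I interferon genes. Mitochondrially encoded subunits of the respiratory chain had a median of 0.17, but pair medians of 0.37, 0.06 and -0.07. Their median was 0.03 without MB3 1 and 0.00 with GC and length trends removed. ND4 averaged 61698 ± 3415 in MB3 and 54302 ± 3329 in VEH2 (SD, n = 3 each), with a limma adjusted p of 0.369. Histone genes had a median of -0.13, which was -0.06 without MB3 1 and 0.00 with those trends removed. The linker histone H1-10, of 68.6% GC content, had 1307, 1211 and 1358 in MB3 and 1869, 1590 and 1753 in VEH2, and its log2 difference of -0.43 became -0.02. Histone genes have near identical copies. RNA was depleted of ribosomal RNA, which can keep histone mRNA that lacks a poly(A) tail, but whether such mRNA was read here was not tested.

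Matrix genes (33 tested, median -0.09), Notch and Wnt targets (27 tested, -0.12) and MHC class I genes (15 tested, -0.07) also came to 0.01, 0.02 and 0.00 with GC and length trends removed. Leaving out MB3 1 gave medians of 0.06, -0.04 and 0.005. LAMA5, LOXL1 and AGRN, all matrix genes of high GC content, had log2 differences of -0.41, -0.44 and -0.33 as deposited. They were at -0.10, -0.07 and 0.03 after removal of those trends, and LOXL1 and AGRN were at -0.21 and -0.16 without MB3 1. Among the Notch and Wnt genes LFNG was at -0.73, or -0.36 without MB3 1. FZD2 was at -0.20 and LRP6 at 0.23, or 0.07 and 0.14 with GC and length trends removed. PSMB10, a subunit of the immunoproteasome, was at -0.58 (limma adjusted p = 0.158), NLRC5, the activator of MHC class I genes, at -0.28 and TAPBP at -0.12, and after removal NLRC5 was at -0.15 and TAPBP at 0.00. Type I interferon genes had a median of -0.09 as deposited and -0.11 after removal, with pair medians of -0.17, 0.04 and -0.09. Of 32 tested members 11 were lower in all 3 pairs, against 22.3% of all genes, and none was called. IRF7, a master regulator of interferon genes, had 78.6, 78.9 and 96.2 normalized reads in MB3 and 137, 118 and 134 in VEH2, a log2 difference of -0.61 (limma adjusted p = 0.158). ISG15 and IFIT5 were at -0.42 each. After removal IRF7 was at -0.28, ISG15 at -0.21 and IFIT5 at -0.50. Proteins of the small ribosomal subunit (32 tested) were at -0.065, with pair medians of 0.04, -0.10 and -0.14. Wholly lower in MB3 were 10 members and wholly higher 3, against 11.6% and 11.5% of all genes. Their pseudogenes share sequence, so reads could have been split among copies.

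Subunits of the complexes that hold GCN5 had list medians close to 0. Of 24 SAGA genes 22 were tested, none was called, and their median log2 difference was -0.01, with 3 wholly higher in MB3 and 2 wholly lower. That is 22.7% with groups apart in either direction, beside 23.0% of all genes. TAF10, a histone fold subunit shared with TFIID, was the farthest from 0. It had 132, 184 and 162 normalized reads in MB3 and 235, 244 and 240 in VEH2. The groups did not overlap, and the log2 difference was -0.60 (SE 0.12, limma adjusted p = 0.202). ATXN7, which anchors the deubiquitinase module, was at 0.22 and TAF6L at -0.22. ATXN7 was at 0.15 and TAF6L at -0.12 without MB3 1, and TAF6L was at 0.02 with GC and length trends removed. All 10 ATAC genes listed were tested, with KAT2A and KAT2B counted under SAGA. The ATAC median was 0.02, with pair medians of 0.155, 0.056 and 0.046. Of these genes 3 were wholly higher in MB3 and none wholly lower, or 30.0% with groups apart, beside 23.0% of all genes. ZZZ3 was at 0.26, and POLE4 and DR1 at 0.16 and 0.10. Without MB3 1 they were at 0.17, 0.10 and 0.06, and DR1 was at -0.02 with GC and length trends removed. The 18 other acetyltransferases had a median of 0.07, 7 of them higher in all 3 pairs and none lower, against 24.2% and 22.3% of all genes, and 0.03 with GC and length trends removed. NCOA3, a nuclear receptor coactivator, had 1347, 1366 and 1261 in MB3 and 1090, 1153 and 1150 in VEH2, a log2 difference of 0.23 (limma adjusted p = 0.294). NCOA2 was at 0.10 and GTF3C4 at 0.09, and both at 0.03 with GC and length trends removed.

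**Figure D5:**
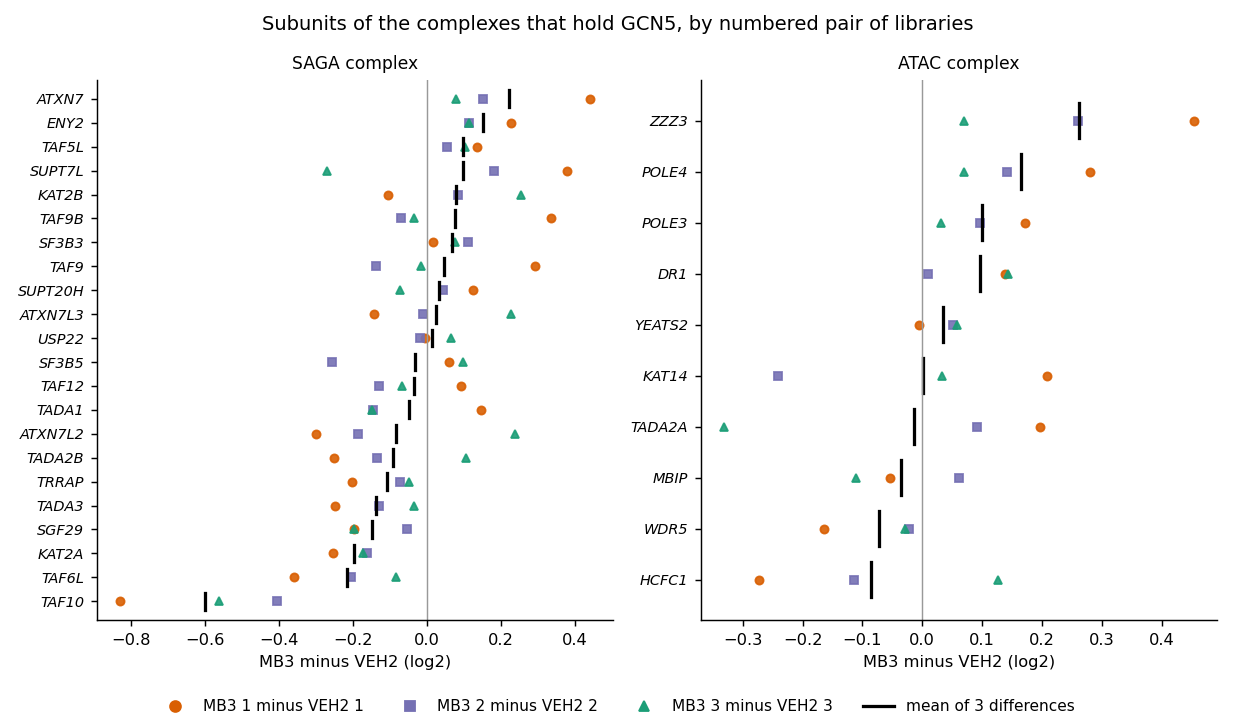
Log2 difference, MB3 minus VEH2, of each tested SAGA (left) and ATAC (right) subunit, with 1 marker per numbered pair and a black bar at their mean. TAF10 is the lowest SAGA gene in every pair, KAT2A lies below 0 in every pair, and the bars of the other subunits lie on both sides of 0.

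The 6 called genes did not move alike in the other experiments, each of which has controls of its own. HMOX1 had log2 differences of 1.13 with KJ-PYR-9 and 0.80 with the siRNA against MYC, and OSGIN1 had 1.85 and 0.51. TXNRD1 was at -0.43 and 0.57. SOCS3 was at 1.38 and 0.20, and CEBPD at 1.46 and 0.61, so both genes were lower with MB-3 and higher in the other 2 comparisons. DEPP1 was at -0.59 with KJ-PYR-9 and 0.83 with the siRNA. No test was made between tables that were normalized separately.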

How the data were processed

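RNA of BT549 cells was depleted of ribosomal RNA and sequenced, per the labels' protocols. The authors deposited 1 signal value per gene and library, a read count divided by a library factor. DESeq2, featureCounts, SAMtools, bcl2fastq and the build GRCh38 appear in the submitters' processing notes. The aligner is not given in the sources used here, nor is the strand setting, so overlapping genes can share reads. All values were whole multiples of a library step within a tolerance of 0.001, which gave the depth.

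Genes with a mean of at least 10 (all 10048) entered a two-sided limma test (limma 3.58.1, R 4.3.3) of log2(value + 1), and p-values were adjusted by Benjamini-Hochberg, with calls under 0.05. Fold changes are on that scale, which understates changes of low genes. An exact permutation of 3 against 3 libraries cannot go below 0.1. Same-numbered libraries deviated together (correlations of 0.389, 0.328 and 0.208, each over 0.1), so the numbers were taken as pairs. MB3 3 also correlated with VEH2 2, at 0.194, so its pairing is less clear. The main test leaves the number out, and values with the number as a model term stand where they change a call. The labels call the replicates biological without naming separate cultures. On simulated data of the 10048 genes, changes of 0.6 and 1.2 were recovered for 77% and 100% of 100 genes each, with 13 false calls. The simulation gave every gene the same spread between libraries, and held no GC trend, no outlying library and no replicate effect. These shares therefore do not say how many real changes of that size were called here.

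GC content and length came from GENCODE v29 transcripts (99.4% of genes), coordinates and promoters from RefSeq. The loess trend of each library's deviation on both was removed as an alternative, and scaling by trimmed means was coded for this work. Named genes were KAT2A, KAT2B and MYC, the 8 largest protein-coding rises and falls with a mean of at least 100 and groups apart (called genes first, then by smallest p), and up to 3 members of 15 lists. Members and lists were chosen with earlier results of these data known. Lists of mitochondrially encoded subunits and ribosomal protein pseudogenes were added, and histone and COX patterns corrected, once symbols were seen. Lists carry no test.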

Additional observations from a re-analysis of the deposited data

How the results depend on the processing

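HMOX1 was called in all 17 alternatives, CEBPD in 13 of 17, OSGIN1 in 10 of 16, SOCS3 in 9 of 16, TXNRD1 in 6 of 17 and DEPP1 in 5 of 16, and no alternative turned the sign of any of the 6. The alternative without a filter on low values tested the same 10048 genes as the main fit and repeats it, so it adds no support. The 5 genes other than HMOX1 had an adjusted p of 0.0466, just under the threshold. With the replicate block 14 genes were called, 6 higher and 8 lower, 4 of them shared with the 6. A trended and robust variance gave 11 (5 higher, 6 lower), taking out the GC and length trends 11 (5 and 6, all 6 kept), and taking them out with the replicate block 3, of which 1 was lower. Leaving out 1 library at a time left 1 to 3 calls, 1 to 2 higher and 0 to 2 lower, while 762 to 1962 genes had an unadjusted limma p under 0.05. Without replicate 1 of both groups, chosen after MB3 1 was seen to stand apart, 4 genes were called, and 23 (10 higher, 13 lower) with the replicate block. Among the 5500 genes with a mean of at least 500, which are fewer, 745 were wholly higher and 709 wholly lower in MB3, and 1536 were higher and 1263 lower in every pair. Scaling moved the median of all genes by at most 0.01. Count tests on recovered reads with edgeR and DESeq2 were not run, since no MB3 library holds a gene of 1 read against which the recovered reads could be checked.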

Other observations

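RPL21P28, a processed pseudogene of a ribosomal protein gene, had 1148, 61.7 and 16.4 normalized reads in MB3 and 0, 4.59 and 2.56 in VEH2. That is the largest log2 difference of the table, 5.31 (limma adjusted p = 0.269). Most of its MB3 reads were in MB3 1, the library that stood apart, and its other values lay below the lowest gene mean of 83.9. EIF3CL, a near identical copy of EIF3C, had 703, 465 and 510 in MB3 and 741, 170 and 137 in VEH2, so replicate 1 stood apart in VEH2. Both genes have near identical copies.

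Immediate early genes had members on both sides of 0. Of 29 tested members 8 were higher in all 3 pairs and 7 lower, beside 24.2% and 22.3% of all genes. The MB3 values lay wholly above the VEH2 values for 7 members and wholly below for 6. That is 44.8% of members with groups apart, beside 23.0% of all genes. None was called without the replicate number as a term. With it DUSP4 and DUSP6 were called. JUNB had 966, 1047 and 1438 normalized reads in MB3 and 1857, 1755 and 1966 in VEH2, a log2 difference of -0.71 (limma adjusted p = 0.202), or -0.45 with GC and length trends removed. CCN1, a matrix protein of growth factor response, was at -0.42 and EGR1 at 0.33. EGR1 had 992, 1017 and 1035 in MB3 and 826, 799 and 795 in VEH2, so its groups stood apart at a limma adjusted p of 0.202. FOSL1 was also at 0.33. These genes were named after their values were seen. Heat shock genes (22 tested) had 12 members higher in all 3 pairs and 3 lower, against 24.2% and 22.3% of all genes. Their median was 0.07 as deposited and after GC and length trends were removed, and none was called.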
